A study of Mus musculus with 3 samples.

Results

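The transcripts of 9 genes by which white blood cells attach to vessel walls, matrix and each other were followed in tumour MDSCs and in bone marrow neutrophils: the integrin subunit genes Itgam, Itgal, Itgax, Itgb2, Itga4, Itgb1 and Itgav, the selectin ligand gene Selplg and the integrin ligand gene Icam1. They were chosen by symbol, and all 9 were found among the 19723 genes of the count table and among the 13019 genes past the filter on low counts. MDSCs, the myeloid-derived suppressor cells that accumulate in tumours and dampen T cell responses, came from tumours of alisertib-treated animals and of control animals; alisertib blocks the mitotic kinase Aurora A. The neutrophils came from wild-type bone marrow. All were female BALB/c mice aged 6 to 8 weeks. The labels describe the control mice both as untreated and as control treated, and give neither the tumour line, the dose and schedule, nor the surface markers of the sort. Each group was 1 RNA-seq library, pooled from 20 tumours, 20 tumours and 5 mice at a sort purity above 90%, so there was no replicate and no test between groups. Every ratio below compares these libraries, with an interval for counting error only.

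Integrins are pairs of 1 alpha and 1 beta subunit, held bent and inactive until talin and kindlin bind the beta tail. The beta 2 integrins are made by leukocytes: Itgal encodes the alpha chain of LFA-1, which binds ICAM-1, and Itgam that of Mac-1 (CD11b), a receptor for complement, fibrinogen and ICAM-1 and the usual surface marker of neutrophils and MDSCs. Itgax encodes CD11c, which is best known from dendritic cells and macrophages, and Itgb2 the shared beta chain CD18. Itga4 with Itgb1 forms VLA-4, a receptor for VCAM-1 that holds progenitors and immature granulocytes in the marrow, while Itgav binds proteins that carry an RGD motif and activates latent TGF-beta. Selplg encodes PSGL-1, on which leukocytes roll over selectins, and Icam1 encodes the ligand of LFA-1 and Mac-1 and is induced by NF-kappaB.

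The libraries held 19373087 counts for alisertib MDSCs, 21959748 for control MDSCs and 21987097 for bone marrow neutrophils. Neutrophil markers were present in all 3: none of 12 was at 0 counts, and their summed level was 15091 CPM (counts for each 1e6 of the scaled library size) in alisertib MDSCs, 34957 in control MDSCs and 110829 in bone marrow neutrophils. Aurka, the target of alisertib, had 10.3 CPM in alisertib MDSCs, 9.68 in control MDSCs and 27.1 in bone marrow neutrophils. Marker transcripts of other cell types were found in every library. The 16 T and NK cell markers summed to 63.4, 22.5 and 146.7 CPM, in that order of libraries, and the 12 B cell markers to 54.1, 7.83 and 238.5 CPM. Those of 12 monocyte and macrophage markers were 791, 658 and 337 CPM, those of 9 dendritic cell markers 56.7, 29.1 and 16.9 CPM, and those of 8 eosinophil, mast cell and basophil markers 65.6, 45.5 and 161 CPM. Medians per gene kept the order of the sums for B cell markers and for monocyte and macrophage markers. They did not for T and NK cell markers (3.88, 1.02 and 0.607 CPM) or dendritic cell markers (0.723, 0.768 and 1.69 CPM). Nor did they for eosinophil, mast cell and basophil markers (0.217, 0.563 and 9.19 CPM), although bone marrow was highest by both measures. In these pools, fewer cells of a type and less RNA per cell cannot be told apart. Whether these transcripts came from other cells or from the sorted cells themselves was not tested.

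Promoter sequences are shown for Icam1 and Itgax, which had the largest ratios of tumour over marrow among the members, and for Itgam, whose window held 3 motif matches. RefSeq on GRCm38.p6 gave a window from 250 bases before to 50 after the annotated start for 6 members: Itgam, Itgax, Itga4, Itgb1, Itgav and Icam1. Capitals mark matches, on either strand, to the motifs GGAAATTCC (NF-kappaB) in Icam1, TGANTCA (AP-1) in Itgax and GAGGAA (PU.1, a myeloid factor) in Itgam. The windows lie at chr9:21015690-21015989, chr7:128129300-128129599 and chr7:128062390-128062689, all on the plus strand.
Icam1: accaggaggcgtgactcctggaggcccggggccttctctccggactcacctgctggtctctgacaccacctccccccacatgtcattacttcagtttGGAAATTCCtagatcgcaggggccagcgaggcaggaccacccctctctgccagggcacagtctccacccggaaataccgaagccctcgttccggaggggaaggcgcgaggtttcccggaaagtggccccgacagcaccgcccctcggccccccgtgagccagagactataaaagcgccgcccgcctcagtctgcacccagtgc
Itgax: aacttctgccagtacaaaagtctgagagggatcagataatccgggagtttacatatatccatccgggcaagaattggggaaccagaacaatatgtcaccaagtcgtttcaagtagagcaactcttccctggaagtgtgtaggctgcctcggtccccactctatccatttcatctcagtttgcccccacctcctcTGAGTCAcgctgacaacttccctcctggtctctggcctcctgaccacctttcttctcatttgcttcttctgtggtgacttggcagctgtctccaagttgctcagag
Itgam: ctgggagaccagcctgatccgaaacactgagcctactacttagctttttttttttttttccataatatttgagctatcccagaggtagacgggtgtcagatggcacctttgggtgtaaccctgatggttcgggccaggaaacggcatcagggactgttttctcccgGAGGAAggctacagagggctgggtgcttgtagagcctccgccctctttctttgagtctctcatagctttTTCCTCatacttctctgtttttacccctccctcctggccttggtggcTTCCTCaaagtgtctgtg
Distances are from the RefSeq starts, which for Icam1 and Itgax differ from the GENCODE starts given below. The NF-kappaB match began 153 bases before the Icam1 start, and 0.317% of 32851 promoter windows held that motif. The AP-1 match began 56 bases before the Itgax start, and 7.81% of windows held it. GAGGAA, found in 28.3% of windows, began 84 and 15 bases before the Itgam start and 33 bases into the gene, and was also found in Itgav and Itgb1. A longer NF-kappaB pattern (4.79% of windows), a C/EBP pattern (10.8%) and an IRF pattern (3.44%) had no match in the 6 windows, and the Itga4 window held none of the motifs searched. No matches overlapped in these windows, and a match describes letters, not binding.

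The 9 genes split into 2 groups between tumour and marrow. Icam1, Itgax, Itgav and Itgb1 rose in control MDSCs over bone marrow neutrophils, Itgal and Itga4 fell, and Itgam, Itgb2 and Selplg had ratios of 0.63 to 0.72. A gene is said to rise or fall where the bound of its 95% counting interval nearest to 1 was at least 2-fold. Of the 9 genes 6 passed that bound, 4 higher and 2 lower, where 41.3% of all genes tested did (18.3% higher and 22.9% lower). In alisertib MDSCs over the same bone marrow library 8 of 9 passed it, 4 higher and 4 lower, where 41% of all genes did (18.7% higher and 22.3% lower). These shares of all genes also stand beside the counts over bone marrow of every gene list below, and no list was tested against them. Both comparisons use the 1 bone marrow library. The members' median log2 ratio was -1.03 in alisertib MDSCs and -0.48 in control MDSCs over bone marrow, beside -0.10 and -0.14 over all genes.

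**Figure D1:**
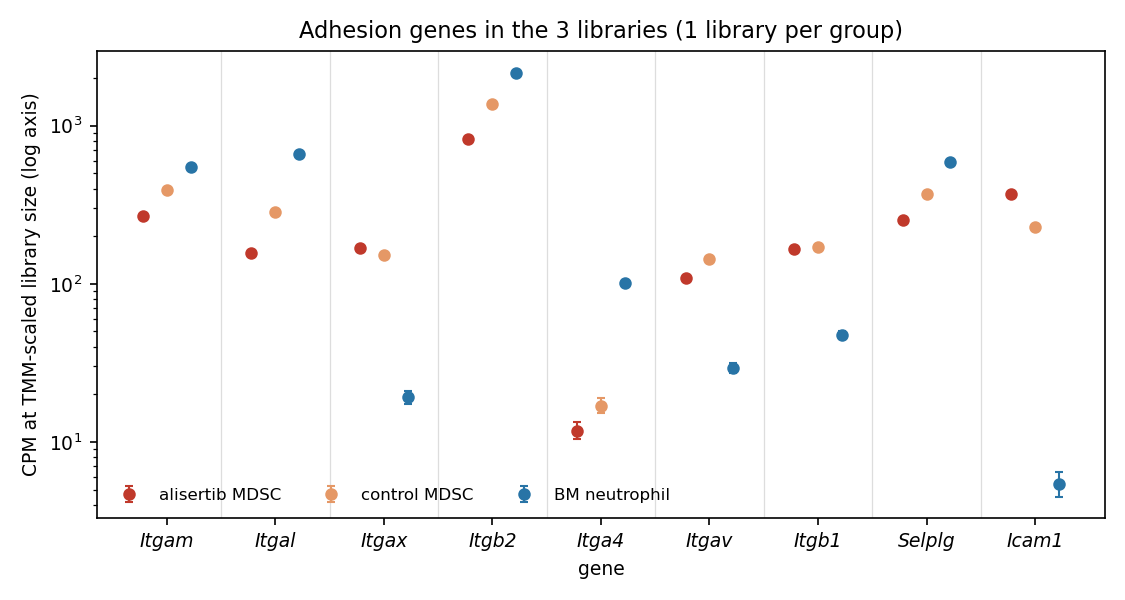
Level of each of the 9 genes in CPM (log axis) in alisertib MDSCs (red), control MDSCs (orange) and bone marrow neutrophils (blue), 1 library each; bars are 95% exact Poisson intervals, often smaller than the points. Icam1 stands at 368 and 229 CPM in the tumour libraries and 5.42 CPM in bone marrow, while Itga4 lies the other way, at 11.8 and 16.9 against 101.7 CPM.

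Icam1 (ENSMUSG00000037405, chromosome 9, 21015985 to 21028817, plus strand of GRCm38 in GENCODE M21) had the largest ratio of tumour over marrow among the members. It had 368 CPM in alisertib MDSCs, 229 in control MDSCs and 5.42 in bone marrow neutrophils (7639, 4468 and 125 counts). Both tumour libraries were high and marrow was low, with no overlap of the Poisson intervals (360 to 376, 222 to 236 and 4.51 to 6.46 CPM). The ratio over bone marrow was 67.6 (56.9 to 81.7) in alisertib MDSCs and 42.0 (35.3 to 50.8) in control MDSCs, and alisertib over control MDSCs gave 1.61 (1.55 to 1.67). By deposited FPKM (fragments scaled by gene length and library size) Icam1 ranked 358 of 23327 genes in alisertib MDSCs, 671 in control MDSCs and 7852 in bone marrow. Its FPKM implies a length of 2540 bases, whereas the union of its annotated exons is 4360 bases. Its level per length is therefore uncertain by a factor of 1.72 when set beside other genes, at 141 FPKM deposited or 82.0 FPKM by exon union in alisertib MDSCs. For the other 8 members the exon union and the implied length were the same to within rounding of the FPKM values.

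The beta 2 alpha chains did not move together. Itgax (ENSMUSG00000030789, chromosome 7, 128129547 to 128150657, plus strand) had 169 CPM in alisertib MDSCs, 151 in control MDSCs and 19.2 in bone marrow neutrophils. It rose 8.78-fold (7.96 to 9.72) in alisertib MDSCs and 7.84-fold (7.10 to 8.70) in control MDSCs over bone marrow. Itgal (ENSMUSG00000030830, chromosome 7, 127296260 to 127335138, plus strand) had the opposite order, with 156, 286 and 665 CPM in alisertib MDSCs, control MDSCs and bone marrow. Its ratio over bone marrow was 0.23 (0.226 to 0.244) in alisertib MDSCs and 0.43 (0.416 to 0.443) in control MDSCs, and it fell in both. Itgam (ENSMUSG00000030786, chromosome 7, 128062640 to 128118491, plus strand) had 267, 391 and 547 CPM. Its ratio to bone marrow was 0.49 (0.473 to 0.504) in alisertib MDSCs and 0.72 (0.695 to 0.736) in control MDSCs, and neither passed the bound. Itgad, the remaining alpha chain of this family, was nearly absent, at 0.385, 0.307 and 1.73 CPM, or 8, 6 and 40 counts.

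Within each library, where no scaling between libraries enters, Itgam held a like share of the beta 2 alpha chain transcripts, the Itgal share was lower and the Itgax share higher in both tumour libraries than in bone marrow, and Itgax stood above Itgal in alisertib MDSCs alone. Per length, Itgam made up 47.4% of the FPKM of the 4 alpha genes in alisertib MDSCs, 50.9% in control MDSCs and 50.8% in bone marrow neutrophils. Itgal made up 21.2%, 28.4% and 47.2%, and Itgax 31.4%, 20.6% and 1.87%, in the same order. By counts the Itgax share was 28.5% (exact binomial interval 27.7 to 29.3), 18.2% (17.6 to 18.9) and 1.56% (1.42 to 1.71), so all 3 libraries differed beyond counting error. Itgax stood at 1.48 times Itgal in FPKM in alisertib MDSCs and 0.724 times in control MDSCs, whereas in bone marrow Itgal stood at 25.3 times Itgax.

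**Figure D2:**
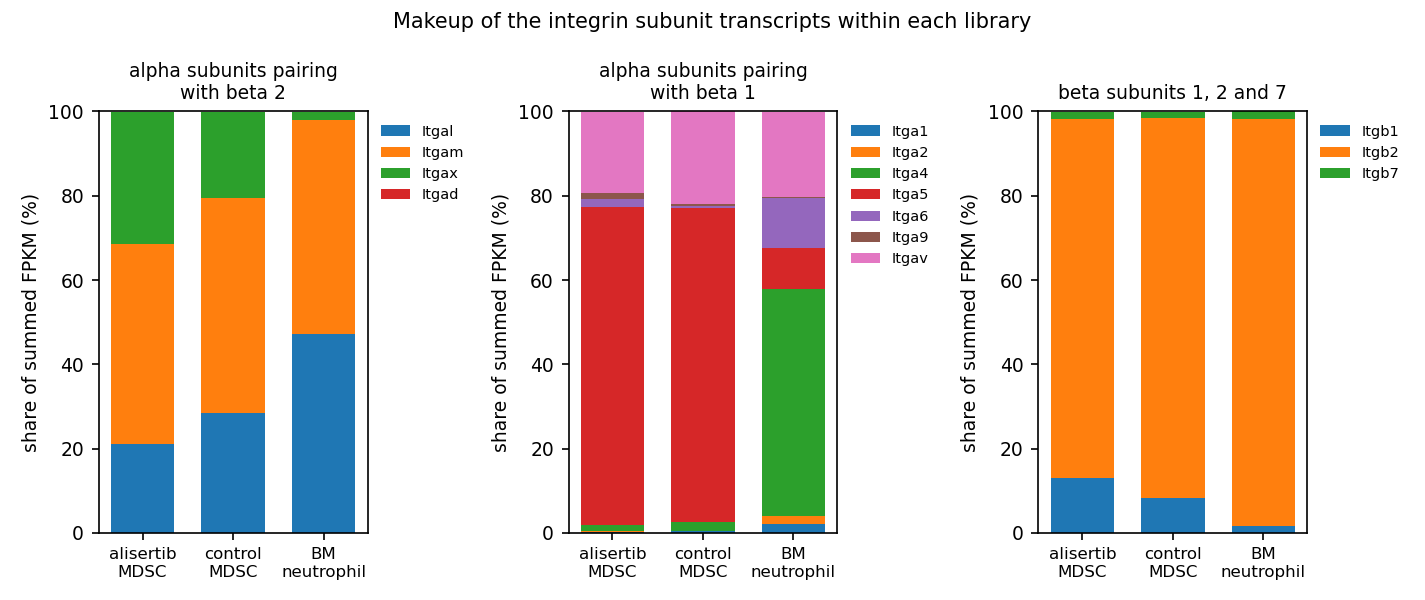
Makeup of integrin transcripts within alisertib MDSCs, control MDSCs and bone marrow neutrophils (1 library each) as shares of summed FPKM (%), for the alpha genes that pair with beta 2 (left), alpha genes that pair with beta 1 (middle) and 3 beta genes (right). Itgax takes 31.4% and 20.6% of the left bars of the tumour libraries and 1.87% in bone marrow, and Itga5 takes 75.5% and 74.7% of the middle bars against 9.81%.

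Itgb2 (ENSMUSG00000000290, chromosome 10, 77530252 to 77565708, plus strand), the common beta chain, was the most abundant member in every library. It had 262 FPKM in alisertib MDSCs, 440 in control MDSCs and 702 in bone marrow neutrophils, ranking 180, 131 and 35 among all genes. Its level in CPM was 824, 1378 and 2167, and it fell in alisertib MDSCs over bone marrow, with a ratio of 0.38 (0.374 to 0.387). In control MDSCs the ratio of 0.64 (0.627 to 0.646) did not pass the bound. Set against the summed FPKM of its 4 alpha partners, Itgb2 stood at 2.40-fold in alisertib MDSCs, 2.95-fold in control MDSCs and 3.31-fold in bone marrow.

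Among the member transcripts for receptors of matrix and VCAM-1, Itgb1 and Itgav rose in both tumour libraries over bone marrow and Itga4 fell. Itgb1 (ENSMUSG00000025809, chromosome 8, 128685654 to 128733200, plus strand) had 167 CPM in alisertib MDSCs, 171 in control MDSCs and 47.2 in bone marrow neutrophils. It rose 3.53-fold (3.30 to 3.79) in alisertib and 3.62-fold (3.38 to 3.88) in control MDSCs over bone marrow, and the tumour libraries did not differ from each other beyond counting error (ratio 0.98, 0.930 to 1.02). Itgb2 FPKM was 6.59 times that of Itgb1 in alisertib MDSCs, 10.8 times in control MDSCs and 61.3 times in bone marrow. Itgav (ENSMUSG00000027087, chromosome 2, 83724397 to 83806916, plus strand) had 109, 143 and 29.4 CPM. It rose 3.70-fold (3.40 to 4.04) in alisertib MDSCs and 4.88-fold (4.48 to 5.31) in control MDSCs.

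Itga4 (ENSMUSG00000027009, chromosome 2, 79255426 to 79333123, plus strand) was the scarcest member per length in both tumour libraries, at 0.820 FPKM in alisertib MDSCs and 1.18 FPKM in control MDSCs. It had 11.8 CPM in alisertib MDSCs, 16.9 in control MDSCs and 101.7 in bone marrow neutrophils (245, 331 and 2345 counts). It fell in both, with ratios of 0.12 (0.101 to 0.132) in alisertib and 0.17 (0.148 to 0.187) in control MDSCs over bone marrow. Itga5, which is no member but encodes the fibronectin receptor alpha chain that pairs with Itgb1, went the other way. It had 172, 198 and 5.81 CPM in alisertib MDSCs, control MDSCs and bone marrow, and rose 29.5-fold (24.9 to 35.5) and 34.0-fold (28.7 to 40.9). Among 7 alpha genes that can pair with Itgb1, Itga5 made up 75.5% of FPKM in alisertib MDSCs and 74.7% in control MDSCs against 9.81% in bone marrow. Itga4 made up 1.62% and 1.999% against 53.8%. By counts its share was 3.83% (3.38 to 4.33) in alisertib MDSCs, 4.65% (4.17 to 5.16) in control MDSCs and 65.8% in bone marrow. Itgav made up 19.4%, 22.01% and 20.2% of the FPKM.

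Marker transcripts of some other cell types ran with Itga4 across tumour and marrow. B and T cells, eosinophils, mast cells, basophils and progenitors express it too. T and NK cell markers differed by measure. Of 13 past the filter, 10 rose and 1 fell in alisertib MDSCs over bone marrow. In control MDSCs 4 rose, 1 fell and 8 were not called. The summed level of all 16 was nonetheless highest in bone marrow, at 63.4, 22.5 and 146.7 CPM in alisertib MDSCs, control MDSCs and bone marrow. Of 12 B cell markers 8 fell in alisertib MDSCs and all 12 in control MDSCs over bone marrow, with Vpreb3 at 0 counts in control MDSCs. Of 8 eosinophil, mast cell and basophil markers 6 fell in each tumour library over bone marrow, and Epx and Ms4a2 were at 0 counts in control MDSCs. Elane, a protease gene of granulocyte precursors, had 6, 5 and 736 counts in alisertib MDSCs, control MDSCs and bone marrow. Among 12 monocyte and macrophage markers 8 rose and 1 fell in alisertib MDSCs over bone marrow, and 6 rose and 2 fell in control MDSCs. None of these 12 was at 0 counts in any library. Of 8 dendritic cell markers past the filter, 3 rose and 3 fell in alisertib MDSCs, and 2 rose and 2 fell in control MDSCs. The part of these cell types in the members' ratios was not tested.

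Selplg (ENSMUSG00000048163, chromosome 5, 113818536 to 113832644, minus strand) had 254 CPM in alisertib MDSCs, 372 in control MDSCs and 589 in bone marrow neutrophils. Its ratio over bone marrow was 0.43 (0.418 to 0.445) in alisertib MDSCs, a fall past the bound, and 0.63 (0.613 to 0.649) in control MDSCs, short of it. Of 12 genes for the sugars and sulfate that PSGL-1 needs to bind selectins, 3 rose and 4 fell in control MDSCs over bone marrow, and 1 rose and 4 fell in alisertib MDSCs. Fut7, the fucosyltransferase that makes selectin ligands in leukocytes, had 1.78, 0.870 and 14.3 CPM (37, 17 and 331 counts). It fell to ratios of 0.13 (0.0859 to 0.175) in alisertib and 0.062 (0.0349 to 0.0986) in control MDSCs. Fut4, the related fucosyltransferase, had 3.71, 3.63 and 25.2 CPM. Gcnt1, which builds the branched O-glycan core, and the tyrosine sulfotransferase gene Tpst2 rose in control MDSCs over bone marrow, with ratios of 2.14 (2.05 to 2.23) and 2.22 (2.11 to 2.33). Of the other selectin ligand genes, Spn (CD43) fell in both tumour libraries over bone marrow and Cd44 rose in both. Spn had 20.6, 23.1 and 149.8 CPM in alisertib MDSCs, control MDSCs and bone marrow, and Cd44 had 2158, 2952 and 875 CPM.

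With alisertib none of the 9 genes passed the bound against control MDSCs, where 2.98% of all genes did (1.8% higher and 1.18% lower). The higher calls were 60.3% of these. That share was 83.6% with scaling by total counts, but 34.6% with a filter at 10 CPM. It was 32.4% with FPKM plus 1, where no interval was used, so the balance of directions depended on the setting. The members' median log2 ratio was -0.52 and 7 of the ratios lay under 1; the median over all genes was 0.00. The lowest ratio was that of Itgal, at 0.55 (0.523 to 0.570), with 156 CPM in alisertib MDSCs and 286 in control MDSCs. Itgb2 followed at 0.60 (0.586 to 0.609), then Itgam at 0.68 (0.659 to 0.707), Selplg at 0.68 (0.660 to 0.709), Itga4 at 0.70 (0.588 to 0.824) and Itgav at 0.76 (0.717 to 0.802). The intervals of Itgam and Selplg overlapped, and that of Itga4 overlapped those of Itgb2, Itgam, Selplg and Itgav, so the order within these is not resolved. Itgax, at 1.12 (1.06 to 1.18), and Icam1, at 1.61 (1.55 to 1.67), were the members above 1. Scaling by total counts moved the median log2 ratio of all genes to 0.27 and that of Itgb1 to 0.23, so relative to the median gene Itgb1 differed by -0.04 under either scaling, while Itgal lay at -0.87 and Icam1 at 0.68. In alisertib over control MDSCs 8 of 12 neutrophil markers fell, 8 of 13 T and NK cell markers past the filter rose and 8 of 12 B cell markers rose. Lymphocytes express Itgal, Selplg, Itga4 and Itgb2, which had ratios below 1 in that library. The part of these cells in the members' ratios was not tested.

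**Figure D3:**
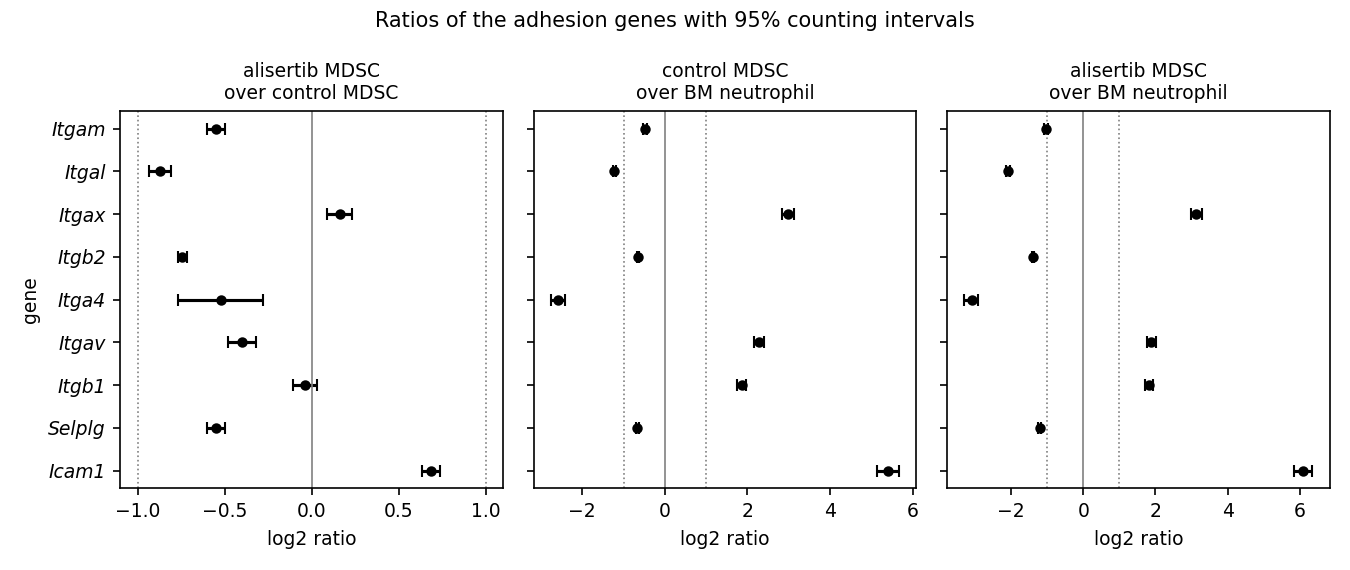
Log2 ratio of each gene with its 95% exact counting interval, for alisertib over control MDSCs (left), control MDSCs over bone marrow neutrophils (middle) and alisertib MDSCs over bone marrow neutrophils (right); dotted lines mark 2-fold and the axes differ in range. On the left all points lie between -0.87 (Itgal) and 0.69 (Icam1), inside the 2-fold lines.

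Other integrin subunits changed in both directions. Of 10 further alpha genes past the filter, 4 rose and 4 fell in control MDSCs over bone marrow, and 4 rose and 3 fell in alisertib MDSCs. Itga6, a laminin receptor chain, had 8.91, 2.25 and 14.3 CPM in alisertib MDSCs, control MDSCs and bone marrow, and was the 1 alpha gene that rose with alisertib over control MDSCs (3.92-fold, 2.83 to 5.63). The B cell marker Cd79a ran in the same order, at 7.18, 0.819 and 23.9 CPM. So did the summed markers of several cell types, among them B cells and T and NK cells. The median T and NK cell marker was instead lowest in bone marrow, at 3.88, 1.02 and 0.607 CPM. Which cells carried the Itga6 transcripts was not tested. Of 5 further beta genes, Itgb2l fell in every comparison. It encodes an Itgb2-like chain of mouse myeloid cells and had 3.85 CPM in alisertib MDSCs, 12.2 in control MDSCs and 343 in bone marrow (80, 238 and 7906 counts). Its ratio of alisertib over control MDSCs was 0.32 (0.242 to 0.409), and it shares ancestry with Itgb2, so reads of the closest stretches may be split between them. Itgb3, a partner of Itgav, fell in both tumour libraries, at 14.7, 7.68 and 89.1 CPM. Itgb7, a partner of Itga4, had 16.1, 21.8 and 35.6 CPM and passed the bound in no comparison.

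Talin, kindlin and the GTPase Rap1 are among the proteins that switch integrins on. Of 21 genes for activation and linkage to actin past the filter, 1 rose and 9 fell in control MDSCs over bone marrow (median log2 ratio -1.02), and 1 rose and 11 fell in alisertib MDSCs (median -1.51). Over all genes 18.3% rose and 22.9% fell in control MDSCs, and 18.7% rose and 22.3% fell in alisertib MDSCs, with medians of -0.14 and -0.10, and the difference of the list from all genes was not tested. Tln1 (talin) had 569, 993 and 2201 CPM in alisertib MDSCs, control MDSCs and bone marrow, Fermt3 (the kindlin of blood cells) 77.4, 97.0 and 332 CPM, and Rasgrp2, which activates the GTPase Rap1, 25.2, 40.7 and 383.5 CPM. All 3 fell in both tumour libraries over bone marrow. The riser was Cyth1, encoding cytohesin-1, which binds the beta 2 tail, at 605, 970 and 110 CPM, 8.78-fold higher (8.42 to 9.15) in control MDSCs. In alisertib over control MDSCs, Flna (filamin A, which competes with talin for the beta tail) fell with a ratio of 0.43 (0.416 to 0.437) and Skap1, an adaptor of T cells, rose 7.02-fold (3.22 to 21.5) at 48 against 6 counts, alongside the T and NK cell markers. Ilk was under the filter, with 2, 0 and 0 counts, and is not interpreted.

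Of 20 genes that signal below integrins, 2 rose and 5 fell in control MDSCs over bone marrow, and 2 rose and 9 fell in alisertib MDSCs. The 7 of 20 called in control MDSCs are near the 41.3% of all genes. The kinase gene Src was close to absent in bone marrow, with 811, 546 and 6 counts and ratios of 139 (68.7 to 411) in alisertib MDSCs and 99.3 (49.1 to 294) in control MDSCs. Plcg2, Cbl and Pik3cg fell in both. With alisertib over control MDSCs the Rac-regulating gene Arhgap15 fell, at 208 against 548 counts (ratio 0.36, 0.303 to 0.420). Of 10 other immunoglobulin-like adhesion genes past the filter, 4 rose and 3 fell in each tumour library over bone marrow, and none passed the bound between the tumour libraries. F11r (JAM-A), also a ligand of LFA-1, rose with Icam1, at 171 and 162 counts in alisertib and control MDSCs against 4 in bone marrow. Vcam1, the ligand of VLA-4, and Icam2 fell, at 1.25, 0.410 and 14.7 CPM and 1.69, 0.819 and 8.84 CPM.

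Among 8 matrix and soluble ligand genes past the filter, 3 rose and 1 fell in each tumour library over bone marrow. Over all genes 18.3% rose and 22.9% fell in control MDSCs, and 18.7% rose and 22.3% fell in alisertib MDSCs. Spp1 (osteopontin), an RGD ligand of integrins that contain Itgav, had 1042 CPM in alisertib MDSCs, 488 in control MDSCs and 11.9 in bone marrow neutrophils. It was the 1 gene of the list that rose with alisertib over control MDSCs (2.14-fold, 2.09 to 2.19). Thbs1 (thrombospondin 1) fell in both tumour libraries over bone marrow, at 159, 309 and 1558 CPM. Of 11 tetraspanins and surface partners 5 rose and 2 fell in each tumour library, among them Cd53 and Plaur, the urokinase receptor that binds Mac-1, which rose, and Cd177, a partner of neutrophil beta 2 integrins, which fell and was also lower in alisertib than in control MDSCs. Of 6 sheddase genes, Adam17, which sheds surface proteins of leukocytes, rose in both tumour libraries (313, 379 and 124 CPM), while Elane, Ctsg and Mmp9 fell in both.

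**Figure D4:**
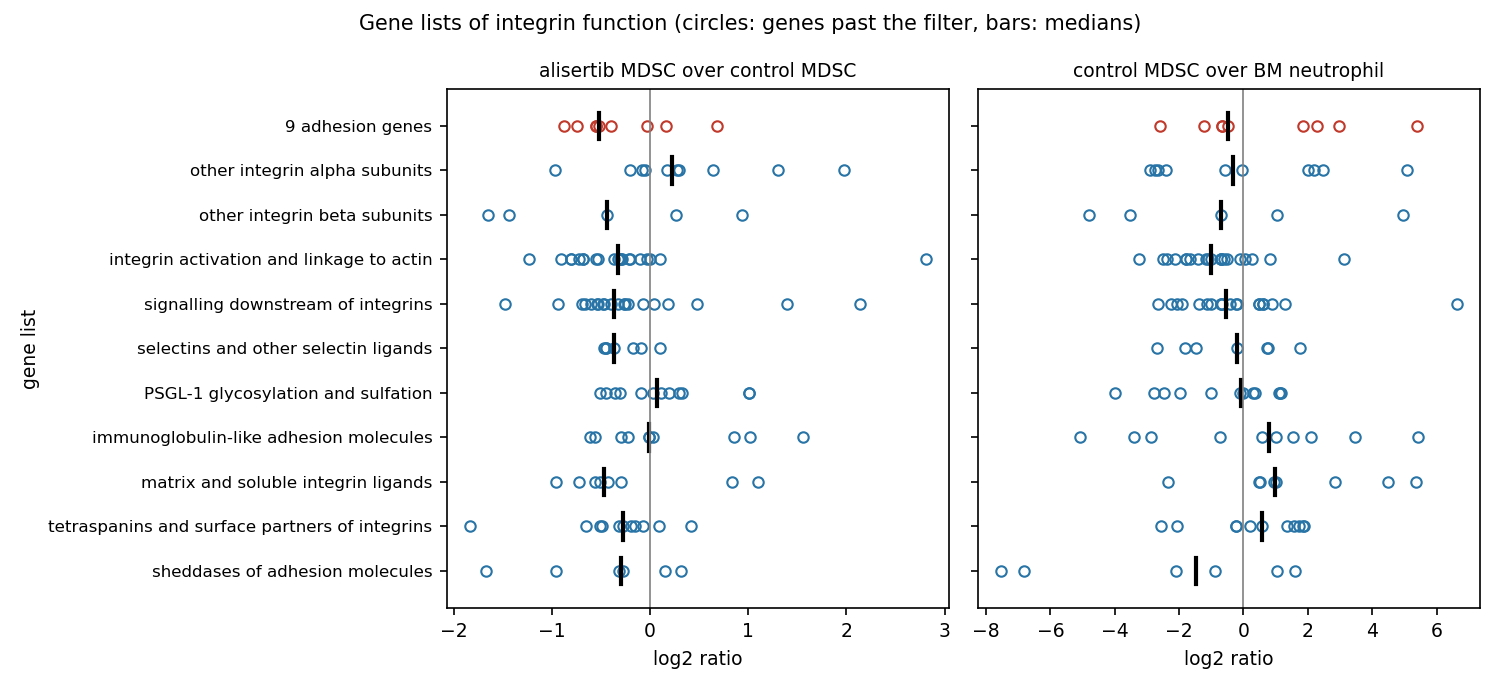
Log2 ratios of the 9 adhesion genes (red) and of the genes past the filter in 10 lists of integrin function (blue), for alisertib over control MDSCs (left) and control MDSCs over bone marrow neutrophils (right); circles are genes, bars medians. The median of the activation and linkage list is -0.33 on the left and -1.02 on the right, and that of the 9 adhesion genes -0.52 and -0.48.

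Genes with a like pair of log2 ratios (alisertib over control MDSCs, and control MDSCs over bone marrow) were sought for Icam1, Itgal and Itgav. Over 3 libraries and 7285 protein-coding genes at 10 CPM or more, the genes nearest to Icam1 were the interleukin 23 subunit gene Il23a (21.7, 13.3 and 0.303 CPM, distance 0.04 log2 units) and Echdc3 (51.2, 34.0 and 0.780 CPM, distance 0.10). Nearest to Itgal were Fam173a (distance 0.04) and Smpdl3a (0.06), and nearest to Itgav the interferon regulatory factor gene Irf5 (127, 169 and 33.9 CPM, distance 0.03) and Fem1c (0.06). In bone marrow Il23a had 7 counts and Echdc3 18. The counting error of their ratios is thus larger than their distances from Icam1, and their rank is not resolved. Likeness over 3 libraries is a description, and 2, 5 and 10 genes lay within 0.1 log2 units of Icam1, Itgal and Itgav.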

How the data were processed

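RNA-seq libraries were prepared from Trizol RNA with the NEBNext Ultra kit, per the labels' protocols. The authors deposited raw counts per gene and FPKM values per gene. CASAVA 1.8, STAR 2.5.1b and the mouse builds mm9 and mm10 are named, with no role, per the submitters' processing notes. The counter, its annotation, the strand setting and the handling of multiply mapped reads: not given in the sources used here. No strand was assumed. Overlapping genes in the count table (Gm49368 with Itgam, Cerkl with Itga4, Gm13684 with Itgav) had at most 51 counts. The antisense gene Gm47079 over Icam1 and the pseudogene Dnmt3l-ps1 over Itgav were not in the count table, so their reads are unknown. Symbols, exon lengths and positions came from GENCODE M21 (GRCm38), which named 19648 of 19723 genes; the build of the files was not established, so positions are those of the annotation.

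Counts were scaled by TMM (edgeR 4.0.16, R 4.3.3), with factors of 1.07 for alisertib MDSCs, 0.890 for control MDSCs and 1.05 for bone marrow neutrophils. Genes with at least 1 CPM in at least 1 library were kept. Ratios had 0.5 added to each count, and their interval is the exact Clopper-Pearson 95% interval given the summed count. A call needs the bound nearest to 1 to be at least 2-fold. PCR copies of 1 molecule could not be recognised, and intervals cover counting error only. No p-value was computed, because each group was 1 library. The procedure was tested on simulated counts. FPKM values served for levels between genes, and 4154 genes found in the FPKM table alone entered no comparison. Alternatives were total counts, DESeq2 1.42.0 size factors, totals without the 50 most abundant genes, other filters, other call bounds and FPKM plus 1 or 0.1. Calls by FPKM plus 1 or 0.1 needed a ratio of at least 2-fold and used no interval, so they changed both the measure and the rule.

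The members and the 10 pathway and 10 marker lists were chosen with earlier results of these data known. Beside the 9 members and Aurka, up to 4 genes per pathway list and comparison were named, called genes first by the bound nearest to 1, then by CPM. The rule always named Itgad and Itgb7, allowed up to 3 genes by CPM from each marker list, whose levels are given as sums instead, and took the 2 protein-coding genes nearest in pattern to Icam1, Itgal and Itgav. Fermt3, Ilk and Cd79a were named for their role after their values were seen. A gene of the selectin list is not reported here.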

Additional observations from a re-analysis of the deposited data

Results flagged for a closer look

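Some adhesion and epithelial genes appear in the FPKM table but not in the count table and entered no comparison. They are given here because a tumour library was above bone marrow at 0.5 FPKM or more. Icam4, an adhesion molecule of red cells that binds beta 2 integrins, had 0.877 FPKM in alisertib MDSCs, 0.165 in control MDSCs and 0.142 in bone marrow neutrophils. The keratin genes of epithelial cells were near 0 in bone marrow: Krt8 had 6.63, 5.17 and 0.0237 FPKM, Krt19 had 1.89, 1.21 and 0.00 FPKM, and Krt14 had 0.0266, 0.539 and 0.00 FPKM, in the same order of libraries. Of 7 epithelial tumour cell markers 3 were in the count table, and 2 of these rose in each tumour library over bone marrow. Their summed level was 17.6 CPM in alisertib MDSCs, 16.3 in control MDSCs and 5.68 in bone marrow. The depth behind the FPKM values is not given, and whether tumour cells add to the adhesion transcripts of the tumour libraries was not tested.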

How the results depend on the processing

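No paired analysis was possible because each group was 1 library, and no library could be left out. Without replicates, only counting error is known. No call of a member was lost under any alternative. Against TMM scaling, Itgb1 in alisertib over control MDSCs turned to a log2 ratio of 0.23 (total counts) and 0.20 (the 50 most abundant genes left out of the totals), by construction of the scaling. Itgam in alisertib MDSCs over bone marrow was called lower at a bound of 1.5-fold. It also passed 2-fold by its ratio alone, with counts and with FPKM plus 1 or 0.1, which carry no interval. At a 1.5-fold bound 1 member (Icam1) rose and 2 (Itgal, Itgb2) fell in alisertib over control MDSCs, and 4 fell in control MDSCs over bone marrow (Itgb2 and Selplg added). Undivided by length, the Itgax share of beta 2 alpha counts was 28.5%, 18.2% and 1.56% in alisertib MDSCs, control MDSCs and bone marrow.

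Counts of all genes called in alisertib over control MDSCs, 234 higher and 154 lower, became 422 and 83 with total counts, 391 and 91 when the 50 most abundant genes were dropped, 607 and 452 with FPKM plus 0.1, 617 and 640 at a 1.5-fold bound and 1006 and 631 with no interval. With a filter at 10 CPM 66 were higher and 125 lower, and with FPKM plus 1 85 were higher and 177 lower, which turned the balance. The higher calls were 60.3% of calls with TMM, 83.6% with total counts, 52.8% with DESeq2 factors, 34.6% at 10 CPM and 32.4% with FPKM plus 1. At 10 CPM, 1564 genes were higher and 1956 lower in control MDSCs over bone marrow, and 1482 higher in alisertib MDSCs over bone marrow, as fewer genes were tested. In the 10 pathway lists, 3 genes were higher and 4 lower in alisertib over control MDSCs. The higher count was 6 with total counts, 6 when the 50 most abundant genes were dropped, 1 with FPKM plus 1, 6 at FPKM plus 0.1 and 7 at a 1.5-fold bound. The lower count was 2 with total counts and 13 at a 1.5-fold bound. In alisertib MDSCs over bone marrow, 23 pathway genes were higher, 14 with the filter at 10 CPM and 15 with FPKM plus 1. The cause was not tested where the setting itself does not show it.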
